A study of Mus musculus with 6 samples.

Results

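The globin and heme genes described here are 9 mouse genes of the red blood cell, out of 8251 genes with a name on the array. They comprise the embryonic globins Hbb-y, Hbb-bh1 and Hba-x, the adult globins Hba-a1 and Hbb-b2, the heme synthesis enzyme Alas2, the carbonic anhydrases Car1 and Car2, and the membrane skeleton protein gene Epb42. Every probe set (a group of short probes for 1 transcript) annotated to exactly 1 of these genes was taken, which gave 11 of the 12422 probe sets. The genes were selected on their measured signals, the difference between mutant and wild-type kidneys on these same arrays, so their differences are described without a test.

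RNA came from whole embryonic kidneys (metanephros) at E14.5, counted in days after mating, and was hybridised to 6 one-colour Affymetrix MG_U74Av2 arrays. The 2 Wnt4 mutant samples carried the Wnt4tm1Amc allele, are labelled strain 129, and each pooled 8 to 10 kidneys from 4 to 5 embryos. The 4 wild-type samples are labelled strain CD-1, and each pooled 2 kidneys. Genotype, strain label and pool size cannot be told apart in this design, and the CD-1 matings named in the protocol text stand for all samples, mutants included. Wnt4 is a signal that kidney mesenchyme needs to form renal vesicles, the first stage of the nephron, and the series compares kidneys with and without these structures. Sex is unknown, and the p-values measure only the spread between these pools.

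In the mouse, the first red cells arise in the yolk sac and carry embryonic hemoglobin, built from the alpha-like chain of Hba-x and the beta-like chains of Hbb-y and Hbb-bh1. Later red cells, made in the fetal liver, carry adult hemoglobin from genes such as Hba-a1 and Hbb-b2. Both kinds circulate together for part of gestation, and blood stays in the vessels of an excised organ. Each globin chain holds a heme, whose synthesis in red cells starts with the enzyme encoded by Alas2. The set of adult beta globin genes differs between mouse strains.

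The deposited values are linear signals, scaled by the authors to a common level on each array. Median signals lay between 181.9 and 191.0 on mutant arrays and between 172.7 and 187.8 on wild-type arrays. Wnt4 itself read 74.2 and 34.5 on the mutant arrays, against 829, 739, 946 and 699 on the wild-type arrays, as the labels say. BioB, a bacterial RNA used as a hybridisation control, read 930 to 950 on mutant and 1645 to 1903 on wild-type arrays at its middle probe set, and its part in the results was not tested. Among kidney markers, the nephron progenitor gene Six2 read 2550 ± 131 in mutant (SD, n = 2) and 2762 ± 160 in wild-type kidneys (SD, n = 4). Others were lower in the mutant without overlap: Wt1 read 817 and 753 in mutant and 852 to 1204 in wild-type kidneys, and Pax2 read 115.3 and 78.7 in mutant and 115.4 to 278 in wild-type kidneys. Neither passed the test with all arrays (limma adjusted p = 0.0823 and 0.0961), but Pax2 fell without wild-type replicate 2, and Wt1 fell without wild-type replicate 4 and under the replicate block. Ret, the receptor of the ureteric bud, was below the filter at 8.08 and 8.61 in mutant and 30.5 to 104 in wild-type kidneys. Of 6 kidney identity markers tested, 0 fell and 1 rose, the stromal gene Foxd1 (limma, adjusted p under 0.05), where 6.11% of all probe sets tested fell and 4.65% rose. In the same list 2 were lower and 1 higher at an unadjusted p under 0.05 in limma. The share of all probe sets at that unadjusted level was not counted.

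RefSeq (GRCm38.p6) gave a promoter for 5 of the 9 genes. The 200 bases before the start of 4 of them are printed 5' to 3', with capitals marking short motifs found on either strand. CACCC is a site for KLF1 and its relatives. CCAAT is a common promoter box. GATAA is the core of a GATA1 site. TATAA or the overlapping form ATAAA can mark a core promoter. Hbb-y and Hba-x stand for the embryonic globins, Hba-a1 for the adult ones and Alas2 for heme synthesis.
Hbb-y, chr7:103853208-103853407, minus strand: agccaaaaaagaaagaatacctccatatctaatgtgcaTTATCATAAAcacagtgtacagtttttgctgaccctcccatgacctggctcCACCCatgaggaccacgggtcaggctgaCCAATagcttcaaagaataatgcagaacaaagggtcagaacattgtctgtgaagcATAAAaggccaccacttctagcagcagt
Hba-x, chr11:32276400-32276599, plus strand: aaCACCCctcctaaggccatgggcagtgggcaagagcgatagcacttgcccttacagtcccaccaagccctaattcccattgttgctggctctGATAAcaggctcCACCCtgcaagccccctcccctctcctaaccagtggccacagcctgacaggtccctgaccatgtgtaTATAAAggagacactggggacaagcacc
Hba-a1, chr11:32283472-32283671, plus strand: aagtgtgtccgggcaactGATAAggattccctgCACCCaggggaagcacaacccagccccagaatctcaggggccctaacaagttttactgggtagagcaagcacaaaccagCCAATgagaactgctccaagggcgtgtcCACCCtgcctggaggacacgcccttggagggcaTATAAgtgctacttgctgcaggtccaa
Alas2, chrX:150547217-150547416, plus strand: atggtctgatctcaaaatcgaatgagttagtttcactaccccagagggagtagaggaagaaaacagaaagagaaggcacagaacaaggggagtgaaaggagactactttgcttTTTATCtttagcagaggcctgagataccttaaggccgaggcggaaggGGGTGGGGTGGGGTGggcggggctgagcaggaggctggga
All 4 windows shown held the KLF motif and the GATA motif, while the fifth, of Epb42, held neither and no CCAAT. The windows of Hbb-y and Hba-a1 also held CCAAT. At least 1 of the start-site motifs lay 23 to 28 bases before the start in all 3 globin genes. A match is only a description, and these letters are common. Of 32851 promoter windows of the same length, 45.5% held the CACCC box and 29.3% the CCAAT box. The GATA motif was in 18.1%, TATAA in 18.5% and the ATAAA form in 30.8%. The start-site motifs overlap each other in Hba-x, and in Alas2 the ATAAA match overlaps the GATA motif.

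The mean signals of the embryonic globins were 3.10 to 5.78 times as high in Wnt4 mutant as in wild-type kidneys. By contrast, the signals of the adult globins overlapped between the groups. Hbb-y, the embryonic beta-like chain epsilon-y, has 2 probe sets. The first, 103535_at, read 7722 and 8521 in the mutant samples, against 1392, 2289, 1932 and 1279 in the wild-type samples. The second, 97180_f_at, read 12187 and 13314 in the mutant and 2977, 5255, 3723 and 4521 in the wild type. At both, each mutant array lay above every wild-type array. On the scale of log2(signal + 16) the differences, mutant minus wild type, were 2.26 ± 0.21 and 1.66 ± 0.19 (limma SE, n = 2 and 4), or 4.81-fold and 3.15-fold. The suffix _f_at marks a probe set that can match several members of a gene family, so this signal may include other beta-like globins.

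Hba-x, the embryonic alpha-like chain zeta, read 4223 and 4750 in the mutant samples, against 1185, 1517, 1118 and 1404 in the wild-type samples. The groups did not overlap, and the lowest mutant array was 2.78 times the highest wild-type array. The difference was 1.78 ± 0.13 on the log2 scale (3.43-fold). Hba-x lies on chromosome 11 (32276600 to 32278116), in the same cluster as Hba-a1, while Hbb-y and Hbb-bh1 lie on chromosome 7 (103851754 to 103853207 and 103841638 to 103843162; GRCm38.p6).

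Hbb-bh1, the embryonic beta-like chain beta-h1, read 317 and 216 in the mutant samples, against 40.2, 58.8, 50.0 and 35.4 in the wild-type samples. The groups did not overlap, and the difference was 2.18 ± 0.37 on the log2 scale. All 4 wild-type values lay below the filter level of their arrays (the 40th percentile of signals, 101 to 110). The gene therefore passed the filter only through the mutant arrays, and the size of its difference depends on the offset of 16: it was 2.51 with an offset of 1 and 1.57 with an offset of 64.

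**Figure D1:**
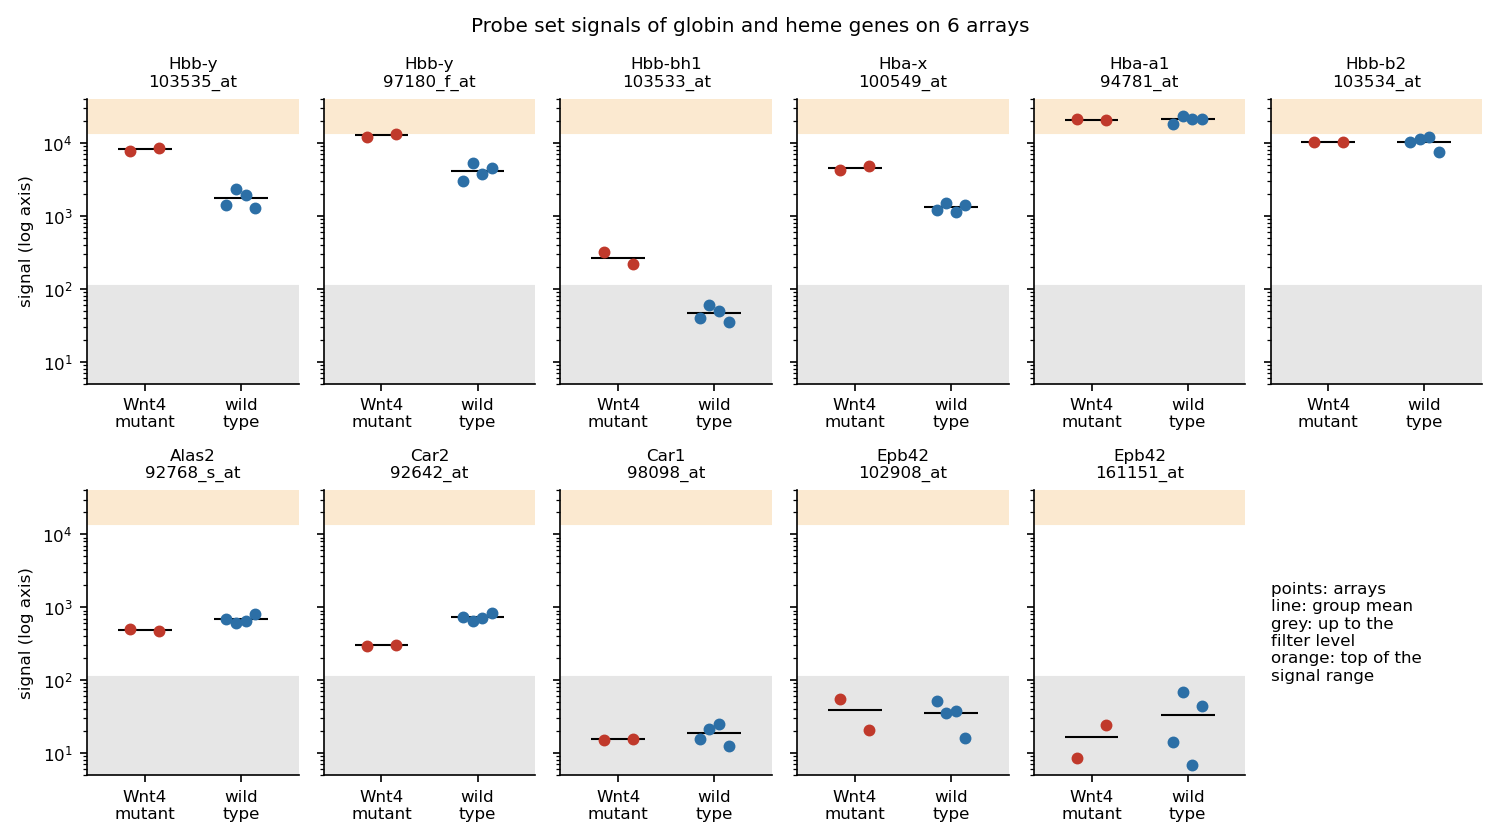
Signals of the 11 probe sets (log axis) on 2 Wnt4 mutant arrays (red) and 4 wild-type arrays (blue), each point an array and each line a group mean. The 4 embryonic globin probe sets are higher in the mutant without overlap, the adult globins Hba-a1 and Hbb-b2 overlap, and Car1 and Epb42 stay in the grey range below the filter level.

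The adult globins did not share this difference. Hba-a1, the adult alpha chain, read 21015 and 20603 in the mutant and 17830, 23586, 21034 and 21424 in the wild type. Both mutant arrays lay inside the wild-type range, and the difference was -0.004 ± 0.11. Its signal was in the top 0.5% on all 6 arrays (levels above 13739 to 15904), where the response of an array may flatten, so a difference could be hidden there. Hba-a1 also has a near-identical copy, Hba-a2, whose RNA this probe set may read.

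Hbb-b2, an adult beta chain, read 10338 and 10229 in the mutant and 10286, 11376, 11886 and 7401 in the wild type. It stayed below the top 0.5% on every array, but lay between the 98.7th and 99.4th percentiles. A difference could be hidden by a flattened response there too. The mutant arrays again lay inside the wild-type range, and the difference was 0.03 ± 0.17. Without wild-type replicate 4, the lowest array, it was -0.12. Since strains differ in their adult beta globin genes, this probe set may not read the same genes in the 2 groups. A further 3 globin probe sets annotated to several genes were not used.

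The heme enzyme and a carbonic anhydrase were lower in the mutant. Alas2, the first enzyme of heme synthesis in red cells, read 500 and 479 in the mutant and 685, 602, 646 and 799 in the wild type. Each mutant array was below every wild-type array, with a difference of -0.46 ± 0.14 on the log2 scale (0.727-fold). The suffix _s_at of its probe set marks probes that may match related transcripts. Car2, a carbonic anhydrase of red cells and also of kidney tubule cells, read 297 and 303 in the mutant, against 738, 653, 718 and 831 in the wild type. The difference was -1.24 ± 0.13 (0.423-fold), larger than that of Alas2 and again without overlap. All of these are signals of bulk tissue, in which fewer cells of a type and less RNA per cell cannot be told apart.

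Car1 and Epb42 could not be compared at these signals. Car1, the carbonic anhydrase most abundant in mature red cells, read 15.2 and 15.8 in the mutant and 12.6 to 24.9 in the wild type. Epb42, which encodes protein 4.2 of the red cell membrane, read 55.9 and 21.0 in the mutant at its brighter probe set, against 15.9 to 51.4 in the wild type. Its other probe set read 8.60 and 24.6 in the mutant, against 6.91 to 69.1 in the wild type. The groups overlapped at all 3 probe sets, and none exceeded the filter level on any array.

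In all, 8 of the 11 probe sets passed the filter, covering 7 of the 9 genes. Both mutant arrays lay above all wild-type arrays at 4 of these 8, the embryonic globins, and below them at 2. Over all 7981 probe sets tested these shares were 18.6% and 18.8%. Because the genes were proposed from this same contrast, nothing is read from their count. The median difference over all tested was 0.02.

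**Figure D2:**
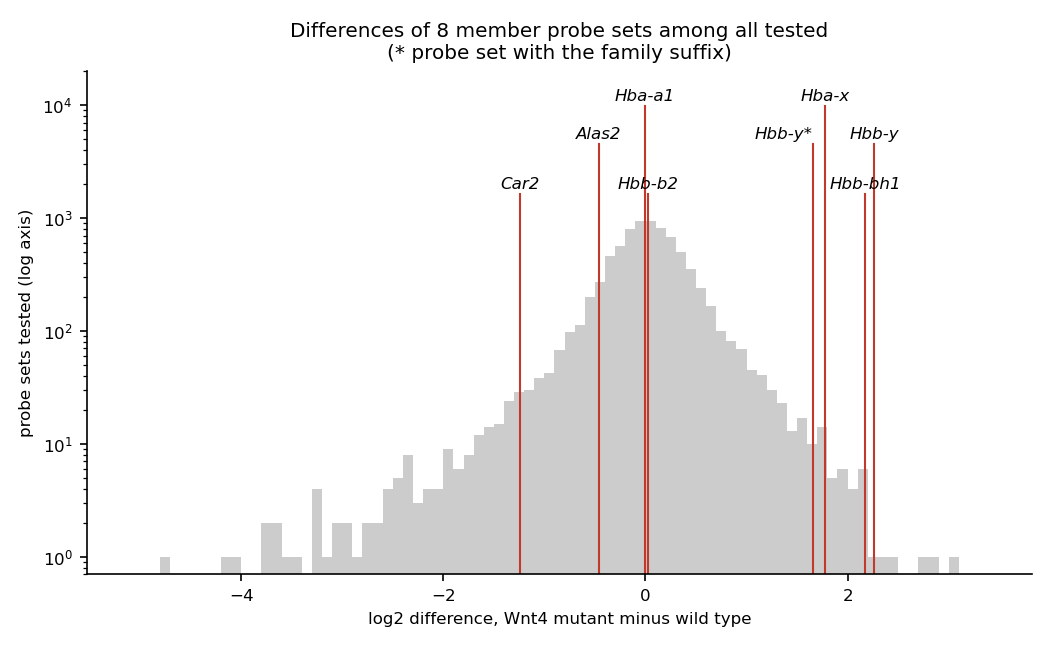
Log2 differences (mutant minus wild type) of the 8 probe sets past the filter, drawn as red lines over the counts of all 7981 tested probe sets (log axis). The embryonic globins lie at 1.66 to 2.26, the adult globins near 0, Alas2 at -0.46 and Car2 at -1.24.

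The embryonic globins also varied among themselves. Among wild-type arrays the highest signal was 1.79 and 1.77 times the lowest at the Hbb-y probe sets, 1.66 times at Hbb-bh1 and 1.36 times at Hba-x. Wild-type replicate 2 gave the highest wild-type signal at all 4 probe sets. It was also the highest wild-type array for Hba-a1 but not for Hbb-b2. In the mutant, replicate 2 was higher than replicate 1 for Hbb-y and Hba-x and lower for Hbb-bh1.

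Ratios within an array show whether these genes differed equally. The level of such a ratio has no meaning of its own, since probe sets differ in brightness, but its change between arrays can be read. The log2 ratio of Hbb-y (97180_f_at) to Hba-x was 1.53 and 1.48 in the mutant, inside the wild-type values of 1.32, 1.78, 1.72 and 1.68. At these probe sets the mutant showed no shift between the beta-like and alpha-like embryonic genes beyond the wild-type spread. The mutant signals of 97180_f_at, 12187 and 13314, lay close below the top 0.5% of their arrays (levels of 14037 and 13791). The response may flatten there, so a larger rise could be hidden. With 103535_at in place of 97180_f_at the ratio was 0.87 and 0.84 in the mutant and 0.23, 0.59, 0.78 and -0.13 in the wild type. This was a shift of 0.49, with both mutant arrays above all wild-type arrays. The ratio of the Hbb-y probe sets to each other, 103535_at over 97180_f_at, was -0.66 and -0.64 in the mutant, against -1.09, -1.19, -0.94 and -1.81 in the wild type. Both mutant arrays lay above the wild-type range, so the probe sets of this gene did not report the same change. Hbb-bh1 over Hba-x was -3.67 and -4.36 in the mutant, and the wild-type values of -4.42, -4.36, -4.10 and -4.79 overlapped them.

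Relative to other red cell genes, the embryonic globins were higher in the mutant with Alas2, Hbb-b2 or Car2 as the divisor, by 1.84 to 3.11 on the log2 scale. The mean log2 value of Hbb-y (97180_f_at, the brighter probe set), Hbb-bh1 and Hba-x minus that of Alas2 was 2.32 and 2.31 in the mutant, against -0.26, 0.45, -0.02 and -0.24 in the wild type. This is a difference of 2.33 (5.03-fold), with a wild-type SD of 0.33. Over Hbb-b2, the ratio was -2.00 and -2.06 in the mutant and -4.13, -3.75, -4.19 and -3.42 in the wild type, a difference of 1.84 (3.58-fold). Hbb-b2 is the adult globin that stayed below the top 0.5%, though its signals were close to that level. The limit from the strain labels holds for this ratio too, and its part was not tested.

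Over Car2, the difference was 3.11 (8.65-fold), as Car2 was itself lower. These means include Hbb-bh1, whose wild-type signals lay below the filter level and whose difference depends on the offset. For Hba-x alone the differences were 2.24 over Alas2, 1.75 over Hbb-b2 and 3.02 over Car2. For Hbb-y (97180_f_at) alone they were 2.12 over Alas2, 1.63 over Hbb-b2 and 2.90 over Car2. For 103535_at, the less bright Hbb-y probe set, they were 2.72, 2.23 and 3.51 in the same order. The divisor set in the plan, the mean of Alas2, Car1 and Epb42, gave 4.62 and 4.88 in the mutant and 2.36, 2.99, 2.53 and 2.93 in the wild type, a difference of 2.04. Car1 and Epb42 were below the filter level, and only Alas2 in that divisor lay above it. With the mean of 5 other red cell membrane genes (Ank1, Dmtn, Mpp1, Slc4a1 and Stom) the difference was 1.90. In the ratios to Alas2, Hbb-b2, Car2 and the planned divisor both mutant arrays lay above all wild-type arrays, a direction that the choice of the genes had set.

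Ratios among the other genes shifted less. Hbb-b2 over Alas2 was 4.33 and 4.37 in the mutant and 3.88, 4.20, 4.17 and 3.19 in the wild type, so the mutant values lay just above the wild-type range. Car2 over Alas2 was nearly constant in the wild type, at 0.11, 0.11, 0.15 and 0.06, and read -0.72 and -0.63 in the mutant. The groups did not overlap, so Car2 and Alas2 differed unequally.

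**Figure D3:**
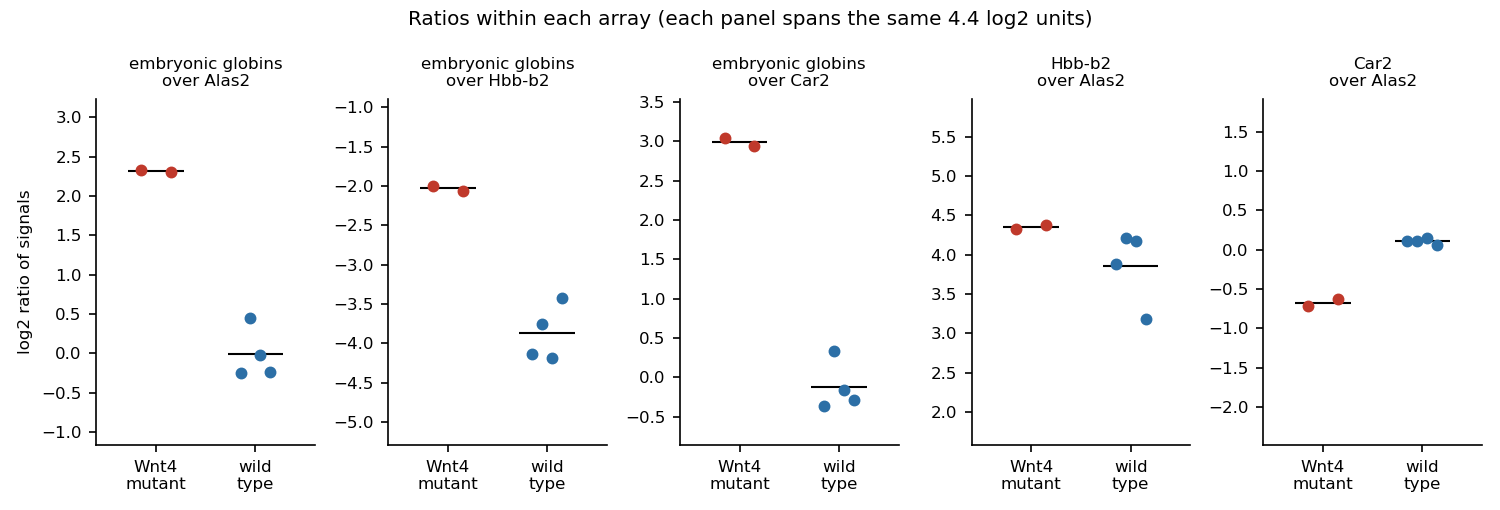
Log2 ratios of signals within each array, Wnt4 mutant (red, 2 arrays) left of wild type (blue, 4 arrays), with lines at the group means; embryonic globins are the mean log2 value of Hbb-y (97180_f_at), Hbb-bh1 and Hba-x. The ratios of embryonic globins to Alas2, Hbb-b2 and Car2 are 2.33, 1.84 and 3.11 higher in the mutant, and Car2 over Alas2 is 0.78 lower.

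Few other red cell genes passed the test. Of 52 further genes tested, out of 99 names in lists on heme synthesis, iron handling, red cell membrane, red cell enzymes, erythroid regulators, globin switching and other globins, 4 fell, 0 rose and 48 did not pass (limma with Benjamini-Hochberg adjustment over all probe sets, threshold 0.05). At an unadjusted p under 0.05 limma gave 8 lower and 2 higher. Over all probe sets tested, 6.11% were lower and 4.65% higher at the adjusted threshold, or 10.8% together. The 4 of 52 (7.69%) lower is therefore close to the background. The share of all probe sets at an unadjusted p under 0.05 was not counted. It is at least that 10.8%, so nothing is read from the unadjusted counts of any list. The median difference of the 52 was -0.06. Of the list of other globins only Mb, the myoglobin gene of muscle, had a probe set with 1 symbol, and it did not pass the filter. Without mutant replicate 2 only Alad and Dmtn fell. In 2 other fits 1 gene rose, Ank1 without wild-type replicate 2 (0.70, limma adjusted p = 0.039) and the chromatin remodeller Chd4 without wild-type replicate 4 (0.64, limma adjusted p = 0.0132). Both probe sets have the suffix _f_at, so these signals may include related genes.

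In the heme synthesis list, 2 of 8 genes besides Alas2 fell and 0 rose, and the median difference was -0.18. At an unadjusted p under 0.05 limma also gave 2 lower and 0 higher. Alad, the enzyme of the second step of heme synthesis, fell to 1598 ± 18.6 in mutant kidneys (SD, n = 2), against 2721 ± 253 in wild-type kidneys (SD, n = 4). Its difference was -0.76 ± 0.10 (SE; limma adjusted p = 0.00218), and both mutant arrays (1611 and 1584) lay below the wild-type range of 2351 to 2919. Abcb10, a transporter of the inner mitochondrial membrane used in heme synthesis, fell by 1.85 (limma adjusted p = 0.0151). It exceeded the filter level on the 4 wild-type arrays only, so it passed the filter through the group where it was high. Its signals were low, at 79.8 and 27.0 in the mutant and 165 to 292 in the wild type, and without mutant replicate 2 the fall did not pass (-1.28, limma adjusted p = 0.113).

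Alas1, the form of the first enzyme used in most tissues, read 953 ± 27.4 in mutant (SD, n = 2) and 1078 ± 17.7 in wild-type kidneys (SD, n = 4), with a difference of -0.18 (limma adjusted p = 0.266). Urod, a later enzyme of the pathway, had -0.19 (limma adjusted p = 0.471). Tmem14c, a mitochondrial carrier of heme precursors, read 1435 and 1434 in the mutant and 231, 1160, 1146 and 312 in the wild type. Its wild-type arrays split widely, and its difference of 1.33 did not pass (limma adjusted p = 0.205).

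Of 10 genes of iron uptake, storage and heme breakdown, 0 fell and 0 rose, with 2 lower and 0 higher at an unadjusted p under 0.05 in limma and a median of -0.08. The ferritin heavy chain gene Fth1 had -0.11 (limma adjusted p = 0.485), and its other probe set had 0.10 (0.560). Tfrc, the transferrin receptor through which red cell precursors take up iron, had -0.05 at its brightest probe set (limma adjusted p = 0.944). Its wild-type arrays ran from 998 to 2501, with mutant arrays at 1469 and 1792 between them. Hmox1, the heme-degrading enzyme, had 0.32 (limma adjusted p = 0.246). Slc11a2 had -0.42 (limma adjusted p = 0.0539), but it fell with a filter at the 60th percentile (limma adjusted p = 0.0430). It also fell under quantile normalization (limma adjusted p = 0.0499), which gave 5 lower genes over all the red cell lists.

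In the red cell membrane list, 1 of 5 genes fell and 0 rose. At an unadjusted p under 0.05 limma gave 1 lower and 1 higher, and the median difference was 0.25. The gene that fell was Dmtn, which encodes the actin-bundling protein dematin. Only the 4 wild-type arrays exceeded the filter level at Dmtn, so it passed the filter through the group where it was high. It read 105 and 83.6 in the mutant and 508, 257, 427 and 388 in the wild type (-1.87 ± 0.26, SE; limma adjusted p = 0.00229). Ank1, the ankyrin that ties spectrin to the membrane, read 371 and 366 in the mutant and 197, 334, 226 and 240 in the wild type. At this probe set, which has the suffix _f_at, its mutant arrays were above the wild-type ones. Its difference of 0.56 did not pass (limma adjusted p = 0.129). Another Ank1 probe set past the filter overlapped between the groups (0.58, limma adjusted p = 0.422). It read 315 and 177 in the mutant and 71.1 to 209 in the wild type. Stom and Mpp1 had 0.10 and 0.25 (limma adjusted p = 0.750 and 0.254).

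Among 6 further red cell enzymes, 0 fell and 0 rose, with none at an unadjusted p under 0.05 in limma and a median of -0.08. Prdx2, an abundant peroxide-removing enzyme of red cells, read 11433 ± 11.7 in mutant (SD, n = 2) and 12407 ± 606 in wild-type kidneys (SD, n = 4). Its difference was -0.12 (limma adjusted p = 0.402). It lay between the 99.3rd and 99.4th percentiles, where a flattened response could hide a difference. Bpgm, which makes the regulator of oxygen release by hemoglobin, had -0.08 (limma adjusted p = 0.751), and Gpx1 had 0.31 (0.438).

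Of 15 erythroid transcription factors and receptors, 0 fell and 0 rose, with 2 lower and 0 higher at an unadjusted p under 0.05 in limma and a median of -0.04. Ldb1, a cofactor that links globin genes to their distant enhancers, had -0.04 (limma adjusted p = 0.920). Zfpm1, the cofactor of GATA1, had 0.12 (limma adjusted p = 0.549), and Pim1 had -0.14 (0.468). The defining erythroid genes were near the filter level, and 0 of the 3 tested passed in either direction, also at an unadjusted p under 0.05 in limma. Gata1 read 97.0 and 42.7 in the mutant and 96.8 to 118 in the wild type (-0.60, limma adjusted p = 0.351), and Klf1 had 0.31 (0.779). This Gata1 probe set has the suffix _f_at. The other one did not pass the filter and overlapped, at 37.0 and 58.0 in the mutant and 17.1 to 56.3 in the wild type. Slc4a1, the anion exchanger of the red cell membrane, read 152 and 164 in the mutant and 26.2 to 140 in the wild type (0.81, limma adjusted p = 0.366).

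Of 9 regulators linked to the switch between embryonic and adult globins, 1 fell and 0 rose. At an unadjusted p under 0.05 limma gave 1 lower and 1 higher, and the median difference was 0.08. Myb, a transcription factor of blood progenitors, read 245 and 209 in the mutant and 418, 376, 385 and 343 in the wild type. It fell by 0.71 (limma adjusted p = 0.0205), but not when mutant replicate 1 or 2 or wild-type replicate 1 or 3 was left out (limma adjusted p = 0.0515 to 0.176). Chd4 had 0.46 and Igf2bp1 1.01 (limma adjusted p = 0.211 and 0.157). The Chd4 probe set, with the suffix _f_at, lay between the 98.1st and 99.2nd percentiles, where the response may flatten. Dnmt1, the DNA methyltransferase, had -0.08 (limma adjusted p = 0.635).

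**Figure D4:**
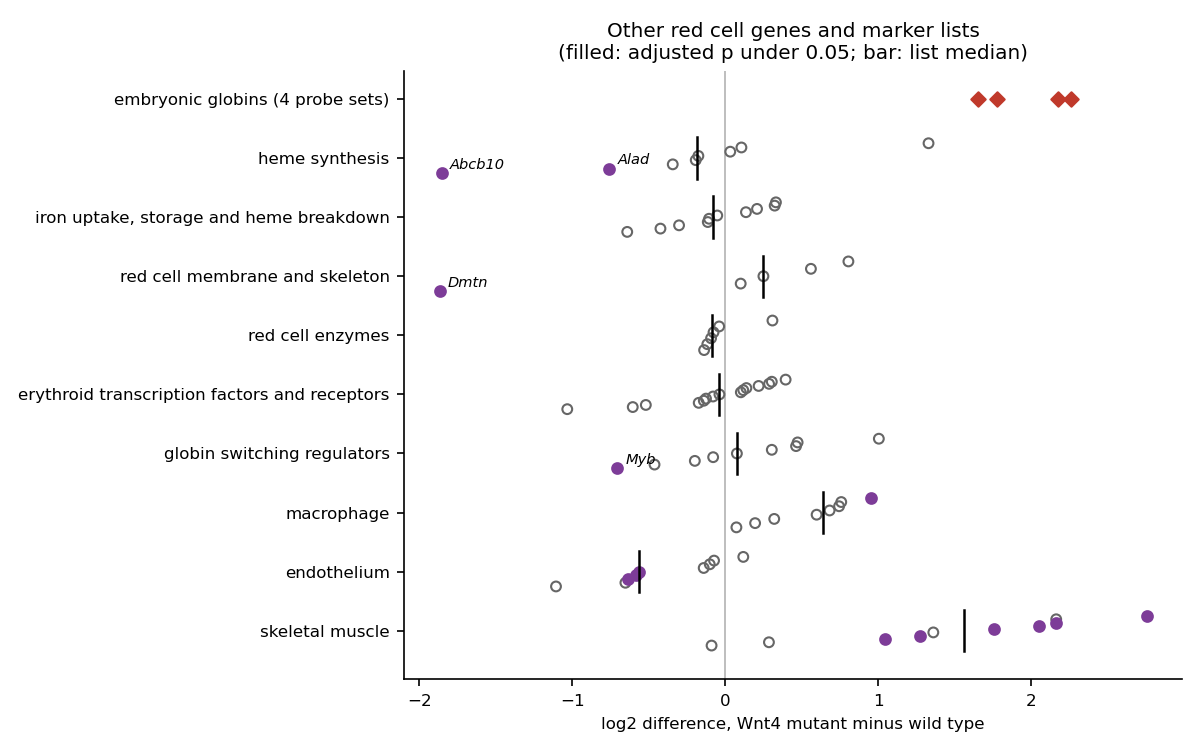
Log2 differences (mutant minus wild type) of the 4 embryonic globin probe sets (red) and of other genes by list, filled where the limma adjusted p was under 0.05, with bars at list medians. In the 6 red cell lists 4 genes fell (Abcb10, Alad, Dmtn and Myb) and 0 rose, and the skeletal muscle markers lie to the right.

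Markers of other cell types moved with the same contrast. Of 10 skeletal muscle markers tested, 6 rose and 0 fell, among them the troponin gene Tnnc1 (2.76) and the myosin light chain gene Myl1 (2.17). Tnnc1 exceeded the filter level only on the 2 mutant arrays, so it had to differ. When mutant replicate 1 or 2 was left out, 3 rose (Actc1, Tnni1 and Tnnt1), and without wild-type replicate 1 4 rose, these and Tnnc1. Myl1 then had limma adjusted p of 0.0543 to 0.201 and Myog 0.0608 to 0.190. At an unadjusted p under 0.05 limma gave 8 higher and 0 lower. The summed signal of the 12 on the array was 6082 to 6316 in mutant and 1691 to 2513 in wild-type samples. Of 8 macrophage markers, 1 rose (C1qb, 0.95, limma adjusted p = 0.0369) and 0 fell. With unadjusted p under 0.05, limma gave 4 higher and 0 lower. This call was lost with all probe sets kept (limma adjusted p = 0.0644) and without mutant replicate 1 (0.207) or 2 (0.199). Without wild-type replicate 4 it was lost too (0.0503), with C1qc called in its place, and without wild-type replicate 2 both C1qa and C1qb rose. The summed signal of the 9 macrophage markers on the array was 2478 to 2631 in mutant and 1702 to 1884 in wild-type samples.

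Of 9 endothelial markers, 3 fell (Emcn, Eng and Icam2, with -0.63, -0.58 and -0.56) and 0 rose. Emcn fell only at its brightest probe set, and the other 2 had -0.10 and -0.38 (limma adjusted p = 0.609 and 0.576). In this list limma gave 4 lower and 0 higher at an unadjusted p under 0.05. Without mutant replicate 1 the count was 0, with limma adjusted p of 0.107 for Emcn, 0.0739 for Eng and 0.103 for Icam2. It was 2, without Icam2, under the replicate block and when mutant replicate 2 or wild-type replicate 1 or 3 was left out. The summed signal of the 10 endothelial markers on the array was 4972 to 5231 in mutant and 6726 to 7001 in wild-type samples. None of the 4 platelet markers on the array passed the filter, and they summed to 184 to 219 in mutant and 189 to 232 in wild-type samples. Of 8 neutrophil markers 3 passed it, and 0 fell and 0 rose, also at an unadjusted p under 0.05 in limma. In the liver list 1 of 7 genes on the array passed the filter. It was Afp, which exceeded the filter level only on the wild-type arrays, where it was high. Afp fell by 1.17 (limma adjusted p = 0.0258), at signals of 61.6 and 68.0 in the mutant and 142 to 195 in the wild type. This call was lost under the replicate block (limma adjusted p = 0.0733) and when any array but wild-type replicate 4 was left out (0.0548 to 0.143). Of 3 collecting duct markers tested, 1 fell and 0 rose, against 1 lower and 1 higher at an unadjusted p under 0.05 in limma. It was Calb1, a calcium-binding protein gene, which fell by 0.61 (limma adjusted p = 0.00539), a call lost without mutant replicate 2 (0.0904). The part of these cell types in the globin signals was not tested.

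The genes whose pattern over the 6 arrays was most like the mean of the embryonic globins were Crabp1 (Pearson r = 0.998), Btg2 (0.997), Rnf10 (0.996), Gata2 (0.996), Srp9 (0.996), Dnajb6 (0.995), Polr2m (0.994), Zfp703 (0.993), Mprip (0.993) and Emp3 (0.991). They share the same 6 arrays and the same step between the groups, and 46 of all probe sets tested, those of the embryonic globins included, had r above 0.98. Crabp1, a retinoic acid binding protein gene, read 2972 and 2823 in the mutant and 761, 950, 832 and 879 in the wild type. The corresponding r was 0.15 for Hba-a1, 0.08 for Hbb-b2, -0.89 for Alas2 and -0.99 for Car2.

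With the group means removed, the 5 most alike genes were Tmem43 (0.993), Krt6a (0.991), Ank1 (0.990), Dctpp1 (0.989) and Tnnc2 (0.988). Hba-a1 reached 0.94 on this measure and Hbb-b2 0.12, while the 90th percentile over all tested probe sets was 0.69. With so few arrays these values describe the arrays and carry no test.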

How the data were processed

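Linear probe set intensity values were deposited by the authors. The submitters' processing notes name GCOS, Affymetrix's own analysis program, with no version or settings. The trimmed mean of each deposited column, without the lowest and highest 2%, was 500.3, so the arrays had been scaled to a common level. Of 12422 probe sets (66 controls set aside), 10833 had 1 gene symbol, 396 several and 1193 none; 10817 matched RefSeq GRCm38.p6 by gene identifier. Probe sets above the 40th percentile of their array on at least 2 arrays were kept (7981). Fold changes and the values given as log2 were computed here. Values were analysed as log2(signal + 16), which understates differences of low signals, and tested with limma 3.58.1 under R 4.3.3 (eBayes with a variance trend), Benjamini-Hochberg over all kept probe sets, 2 mutant against 4 wild-type arrays, no covariate. On simulated data with this design, 65% of log2 changes of 1 and 94% of log2 changes of 2 were called, over 7981 simulated probe sets. There were 9 false calls beside 159 true ones. Simulated probe sets of similar signal shared an SD taken from the wild-type arrays, so these rates may not hold for the real ones. Genes with several probe sets were represented by the brightest. At most 0.0403% of values were identical between any pair of arrays. The number of arrays limits the precision. The genes, lists and tests were chosen with earlier results of these data known. Genes outside the 9 were named by rule. From each list these were the genes past the threshold, at most 4 in each direction, and up to 3 others of highest signal. The 10 and 5 of most similar pattern were added. Abcb10, Ank1, Chd4 and Igf2bp1 values under other fits and Gata1, Klf1 and Slc4a1 signals are given beside the lists they belong to. Slc11a2, Wt1, Pax2, Ret and Mb were named after their values were seen. The alternatives were other offsets, filters, divisors and ceilings, quantile normalization, a replicate block and leaving out each array. The block added the replicate number to the fit, which leaves only replicates 1 and 2 to compare.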

Additional observations from a re-analysis of the deposited data

Results flagged for a closer look

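A single wild-type array lay far from the other 3 for 3 genes, among 35 sets of wild-type values examined; chance gives such a gap in about 1 of 20 groups. The gap between that array and its nearest neighbour, divided by the whole wild-type range of log2 signals, was 0.834 for the muscle regulator Myog, where wild-type replicate 4 was low at 63.3, against 198 to 244 on the others. It was 0.875 for the troponin gene Tnnt1, where wild-type replicate 4 was high at 301, against 215 to 224. It was 0.845 for the endothelial gene Icam2, where wild-type replicate 2 was high at 548, against 483 to 493. None of the 11 probe sets of the 9 genes had such an array. Among list genes outside the 9, only those past the threshold were examined.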

How the results depend on the processing

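The embryonic globins were chosen on this contrast, and their groups did not overlap. Other offsets, the block or a left-out array could therefore not change the sign of their differences. These differences also kept their sign under quantile normalization. They ran from 1.51 to 2.41 for Hbb-y and Hba-x when an array was left out, and from 1.57 (offset 64) to 2.51 (offset 1) for Hbb-bh1, which was 1.92 without mutant replicate 1 and 2.44 without mutant replicate 2. The ratio of the embryonic globins to the planned divisor was 1.92 to 2.17 higher in the mutant when an array was left out, and 1.80 to 2.33 under all alternatives. The ceiling at the top 0.2% changed no gene, and that at the top 1% gave 2.15, without Hbb-y, whose probe sets then lay above the ceiling. Calls over all probe sets ranged, with an array left out, from 188 to 553 lower and from 114 to 448 higher, against 488 and 371 with all arrays. The counts moved by over 1.5 times without mutant replicate 1 (198 lower and 133 higher), without mutant replicate 2 (188 and 114) and, for lower calls, without wild-type replicate 1 (320). The differences of the adult globins stayed between -0.12 and 0.11 and took either sign. Among the 52 other red cell genes, leaving out an array gave 2 to 4 lower and 0 to 1 higher. The labels name no pairing of samples by replicate number. The correlation of deviations between same-numbered arrays was 0.003 for number 1 and -0.015 for number 2. The deviations of the 2 mutant arrays from their mean are mirror images, so these values cannot show whether the samples were paired. With a replicate block 362 probe sets were lower and 341 higher. Wild-type replicates 3 and 4 have no mutant of the same number, so this fit compared only replicates 1 and 2 of each group. Among the red cell genes 3 were then lower and 2 higher, Igf2bp1 (1.67, limma adjusted p = 8e-04) and Chd4 (0.77). Igf2bp1 read 356 and 263 on wild-type replicates 1 and 2, but 819 and 773 on replicates 3 and 4. Chd4 read 6108 and 5592 on wild-type replicates 1 and 2, but 7563 and 10470.5 on replicates 3 and 4. Low signals limit Car1, Epb42, Gata1 and Klf1. The top of the signal range limits Hba-a1 and may limit Hbb-b2, Hbb-y (97180_f_at), Prdx2 and Chd4.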
